A study of Rattus norvegicus with 24 samples.

Results

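Among 22938 transcripts counted in rat brain and liver, 41 were lower in the brain of old rats in both RNA-seq and ribosome profiling. They were chosen by their values in brain. In each assay every old library lay below every young one, the young mean was at least 1.2 times the old mean, and the young mean was at least 1 CPM (counts per 1000000 counts of the library). A set of 3 transcripts was left out by name beforehand, of which 2 met these conditions. The 4 groups of each organ were RNA-seq and ribosome profiling of young rats aged 6 months and of old rats aged 24 months, with 3 animals an age and both organs and both assays from each animal, which gave 8 groups and 24 libraries. RNA-seq libraries were made from total RNA with a TruSeq Stranded kit. Ribosome profiling libraries were made from RNase I footprints of pelleted ribosomes. The labels give no treatment and no genetic change, and they state neither strain nor sex. The tables identify transcripts by number alone, and 0 of the 22938 identifiers matched the reference tables used here, so gene names, functions, cell type markers and sequences are not given.

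Ribosome profiling sequences the stretches of mRNA that a ribosome shields from nuclease, so its counts follow the amount of an mRNA under translation, while RNA-seq counts follow the amount of the mRNA itself. The footprint level over the RNA level is called translational efficiency. Brain is built largely of neurons, which do not divide, and of glia, while liver is built mostly of hepatocytes, which make plasma proteins and carry much of the metabolism of the body. Many transcripts are therefore known to be abundant in one of these organs and scarce in the other. The study asked how ageing differs between organs. In whole tissue, fewer cells of a type and less RNA per cell cannot be told apart.

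Libraries held 14281043 to 28664906 counts in RNA-seq and 5259326 to 17584871 in ribosome profiling. The brain libraries of old animal 2 stood apart. Transcripts at least 10 times higher in young liver than in young brain, 795 in number and none of them among the 41, took 3.05% of its brain RNA-seq counts and 4.26% of its brain ribosome profiling counts. In RNA-seq the young brain libraries lay between 0.534% and 0.605%, and old animals 1 and 3 at 0.721% and 0.700%. In ribosome profiling the young lay between 0.601% and 0.696%, and old animals 1 and 3 at 0.931% and 0.842%. Every old brain library thus lay above every young one, and leaving out old animal 2 does not remove this difference. Old animal 2 also had the lowest old RNA-seq value for 23 of the 41 transcripts, so values are given with and without it. In the opposite direction, 3264 other transcripts at least 10 times higher in young brain than in young liver took 30.3% to 31.2% of counts in young and 29.2% to 30.01% in old brain RNA-seq, and 35.3% to 35.4% and 32.9% to 34.4% in ribosome profiling. The part of either in the lower levels of the 41 was not tested.

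The decrease in old brain was small in RNA and larger in footprints. These values chose the transcripts, so they are described without a test. The young mean over the old mean had a median of 1.26 in RNA-seq (1.202 to 2.41) and of 1.48 in ribosome profiling (1.203 to 3.81). A ratio of 1.5 or more was reached by 4 transcripts in RNA-seq and 19 in ribosome profiling, and a ratio of 2 or more by 1 and 6. Without old animal 2 the median ratios were 1.24 and 1.41, and 30 and 40 of the 41 kept a ratio of at least 1.2. With the liver-enriched transcripts left out of the library sizes they were 1.25 and 1.46, and 37 and 39 kept it. The mean levels of the 41 added up to 5476 CPM in young against 4399 CPM in old brain RNA-seq, and to 4394 against 3273 CPM in ribosome profiling.

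The conditions were met more often in ribosome profiling than in RNA-seq. Of the 12904 transcripts with at least 1 CPM in young brain in both assays, 1.41% met them in RNA-seq, 6.07% in ribosome profiling and 0.333% in both, the 2 left out by name included. Separation of the ages with lower old values, at any ratio, was found for 7.75% in RNA-seq and 11.0% in ribosome profiling, and 291 transcripts had it in both. RNA-seq set the smaller of the 2 ratios for 37 of the 41. The 3 transcripts just inside the limit had smaller ratios of 1.202, 1.203 and 1.204, and the 3 just outside it 1.197, 1.196 and 1.195.

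**Figure D1:**
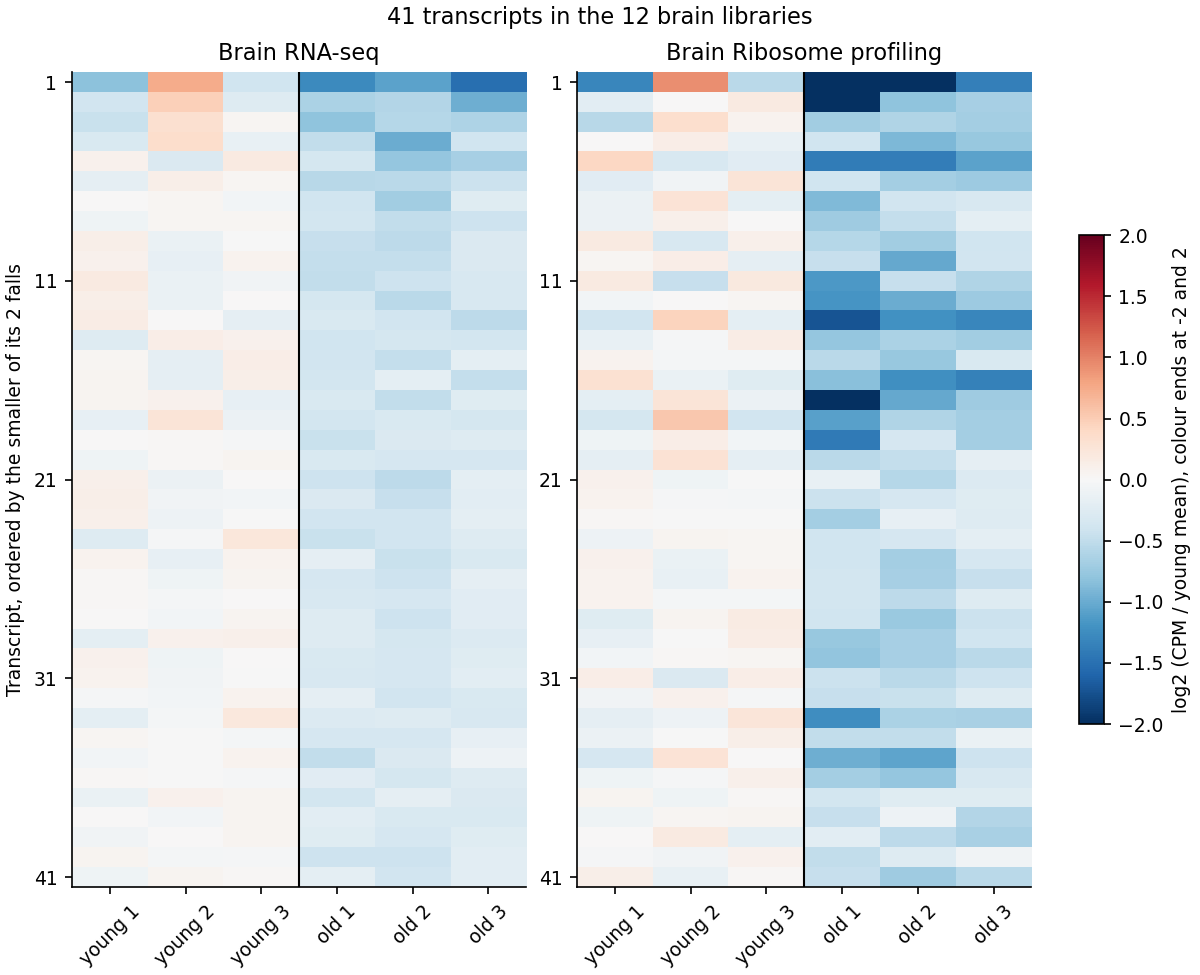
Log2 of CPM over the young mean for the 41 transcripts (vertical axis, ordered by the smaller of their 2 decreases) in the 6 RNA-seq and 6 ribosome profiling libraries of brain (horizontal axis). Colours end at -2 and 2. Old libraries are blue in both assays, as the choice of the transcripts requires, and darker in ribosome profiling, where the libraries of old animals 1, 2 and 3 had medians of -0.563, -0.638 and -0.426 against -0.359, -0.385 and -0.285 in RNA-seq.

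The separation of the ages was often narrow. The lowest young library lay above the highest old one by a median factor of 1.09 in RNA-seq and 1.15 in ribosome profiling, and by less than 5% for 9 and 8 transcripts. The smallest factors were 1.008 and 1.001. The spread among animals of an age, as the median coefficient of variation, was 8.05% in young and 7.31% in old RNA-seq, and 10.5% and 14.9% in ribosome profiling. The lowest old RNA-seq value was in old animal 2 for 23 transcripts, in old animal 1 for 12 and in old animal 3 for 6. In ribosome profiling the lowest was in old animal 1 for 24, in old animal 2 for 13 and in old animal 3 for 4, and the library of old animal 1 was the shallowest of all. Old animal 3 therefore stood nearest to the young animals in both assays.

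Levels ranged widely. Young means ran from 2.2 to 3181 CPM in RNA-seq, with a median of 45.5 CPM against 27.9 CPM over the 12904. In ribosome profiling they ran from 2.88 to 1385 CPM, with a median of 38.0 CPM against 25.2 CPM. A young mean of at least 10 CPM was reached by 32 of the 41 in RNA-seq and 30 in ribosome profiling, and of at least 100 CPM by 9 in each. These levels are scaled to the library and not to length. No transcript of the table matched one of the 41 count for count. Whether any shares reads with a near copy was not tested.

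ENSRNOT00000057672 had the largest ratio in both assays, from low counts. In brain RNA-seq it was at 1.24, 3.69 and 1.67 CPM in young animals 1, 2 and 3 and at 0.912, 1.05 and 0.77 CPM in old animals 1, 2 and 3. In ribosome profiling it was at 1.16, 5.49 and 1.98 CPM in the young and 0.57, 0.576 and 1.12 CPM in the old. The ages did not overlap, but young animal 2 was far above the other young animals in both assays. The means were 2.2 ± 1.31 and 0.911 ± 0.14 CPM in RNA-seq (SD, n = 3), and 2.88 ± 2.3 and 0.754 ± 0.314 CPM in ribosome profiling. Its lowest ribosome profiling library held 3 counts. Without young animal 2 the ratio was 1.60 in RNA-seq and 2.08 in ribosome profiling, in place of 2.41 and 3.81.

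Ranked by the smaller of its 2 ratios, ENSRNOT00000024065 came next, although 2 others had a larger ratio than it in ribosome profiling alone besides ENSRNOT00000057672. Its brain RNA-seq levels were 4.32, 7.9 and 4.73 CPM in the young and 3.65, 3.77 and 2.87 CPM in the old, a ratio of 1.65. In ribosome profiling they were 4.25, 4.95 and 5.63 CPM in the young and 0.19, 2.82 and 3.13 CPM in the old, a ratio of 2.42. The lowest of these, in old animal 1, was 1 count, and without that animal the ratio was 1.66. Young animal 2 was again the highest in RNA-seq but not in ribosome profiling, and without it the RNA-seq ratio was 1.32.

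The most abundant of the 41, ENSRNOT00000009288, showed a small decrease with little spread. It was at 3230, 3105 and 3207 CPM in young against 2537, 2520 and 2709 CPM in old brain RNA-seq, a ratio of 1.23. In ribosome profiling it was at 1449, 1355 and 1352 CPM in the young and 1069, 965.9 and 1156 CPM in the old, a ratio of 1.30. The lowest young library exceeded the highest old one in both assays. The other 40 together went from between 2252 and 2367 CPM in young to between 1738 and 1904 CPM in old brain RNA-seq, a decrease that the choice of each one fixes. ENSRNOT00000009288 alone gave 54.99% of the summed decrease of the 41 in RNA-seq and 28.7% in ribosome profiling.

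Footprints were lower by more than RNA for 37 of the 41 and by less for 4. The log2 footprint to RNA ratio of old brain minus that of young brain had a median of -0.18 and ran from -0.996 to 0.0753. It comes from the contrast that chose the transcripts and is a description. The share with a larger decrease in footprints was not counted over the 12904. Of these, 6.07% met the conditions in ribosome profiling against 1.41% in RNA-seq. Whether the difference is particular to the 41 was therefore not tested. ENSRNOT00000007802 had a larger difference than the median, at -0.5555. Its RNA-seq levels were 199.6, 167.9 and 185.8 CPM in young against 144.5, 127.1 and 147.0 CPM in old brain, a ratio of 1.32. Its ribosome profiling levels were 171.3, 177.8 and 182.0 CPM in young against 77.8, 89.2 and 106.4 CPM in old brain, a ratio of 1.94.

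**Figure D2:**
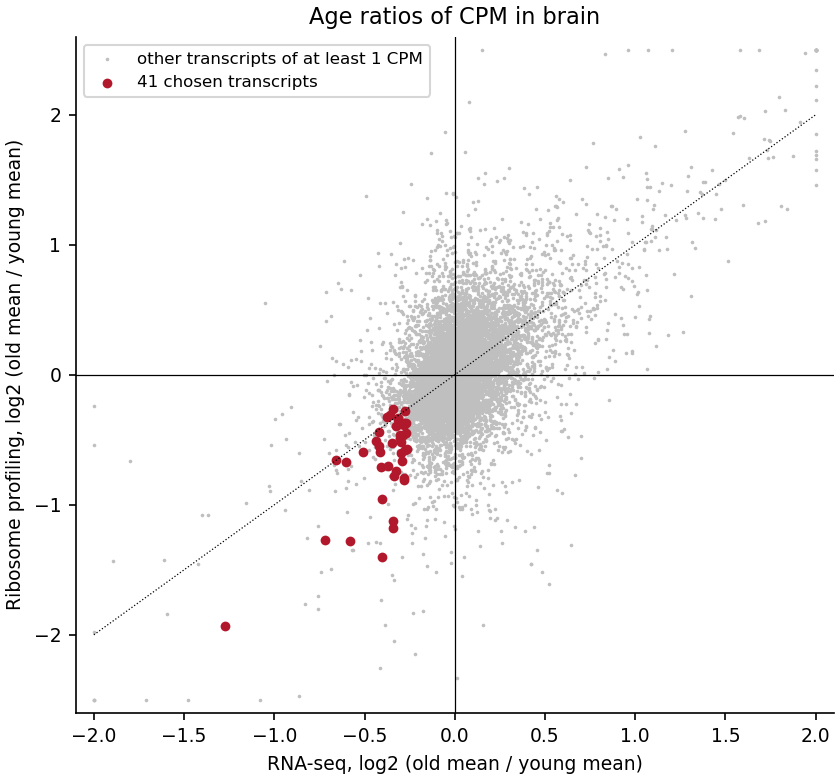
Log2 of the old over the young mean in brain RNA-seq (horizontal axis) and brain ribosome profiling (vertical axis) for the 41 transcripts (red) and the other transcripts of at least 1 CPM (grey). The dotted line marks equal change, and values beyond the axes are drawn at their edge. Most red points, 37 of 41, lie below the dotted line.

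Averaged over both ages, the 41 were not uniform in translational efficiency. Ribosome profiling was tested against RNA-seq over the 12 brain libraries with edgeR's quasi-likelihood test, Benjamini-Hochberg adjusted over all transcripts tested. At an adjusted p under 0.05, 17 of the 41 had more footprints relative to RNA than the average transcript, against 37.2% of all tested, and 15 had fewer, against 36.5%. Both shares lay near those of all transcripts. The median log2 difference was -0.01 for the 41 and 0.01 for all, and single values ran from -1.98 to 1.58. In young animals alone 16 were higher and 12 lower, against 33.4% and 33.4% of all tested. In old animals alone 9 were higher and 16 lower, against 32.6% and 32.3%. The choice of the 41 required low old values in both assays, and its part in these counts was not tested. Without old animal 2 the counts were 14 and 15, against 35.3% and 36.3%.

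At the high end, ENSRNOT00000007365 was at 20.2, 26.5 and 25.5 CPM in young against 18.2, 18.9 and 18.7 CPM in old brain RNA-seq. Its ribosome profiling levels were 67.5, 73.6 and 83.1 CPM in the young and 43.9, 48.0 and 46.0 CPM in the old. Every footprint level lay above every RNA level (log2 difference 1.58, SE 0.0825, edgeR adjusted p = 9.99e-12). ENSRNOT00000019825 was likewise higher in footprints, with 195.1 ± 32.9 CPM in young RNA-seq and 479.9 ± 28.6 CPM in young ribosome profiling (SD, n = 3; log2 difference over both ages 1.44, SE 0.0698, edgeR adjusted p = 3.65e-11).

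At the low end stood ENSRNOT00000021335, with RNA-seq levels of 50.8, 52.7 and 55.5 CPM in young against 37.8, 43.5 and 49.6 CPM in old brain. Its ribosome profiling levels were 11.8, 18.1 and 15.01 CPM in the young and 7.61, 7.17 and 11.2 CPM in the old. Here every footprint level lay below every RNA level (log2 difference -1.98, SE 0.119, edgeR adjusted p = 6.98e-11). ENSRNOT00000046771 was at 61.3 ± 3.12 CPM in young RNA-seq and 16.0 ± 3.16 CPM in young ribosome profiling (SD, n = 3; log2 difference over both ages -1.86, SE 0.0933, edgeR adjusted p = 5.77e-12).

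The sizes of the 41 lay near those of the background. Each table carries a value that resembles a length and that its header leaves undefined, called the length-like value below. Its median was 409 for the 41 and 435 for the 12904, with quartiles of 242 and 637 against 254 and 714. The value exceeded 435 for 20 of the 41. At the ends, 10 of the 41 (24.4%) lay under 200 against 17.6% of the 12904, and 4 (9.76%) lay over 1000 against 13.3%. The smallest was 34 and the largest, of ENSRNOT00000009288, was 2726. Across the 41, Spearman's rho of this value with the log2 of the old over the young mean was 0.140 in RNA-seq and 0.116 in ribosome profiling. A positive rho here means a smaller decrease at a larger length-like value. It is a description over transcripts that share their libraries. With the trend of each library on this value removed, 55 transcripts met the rule, 37 of them among the 41.

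**Figure D3:**
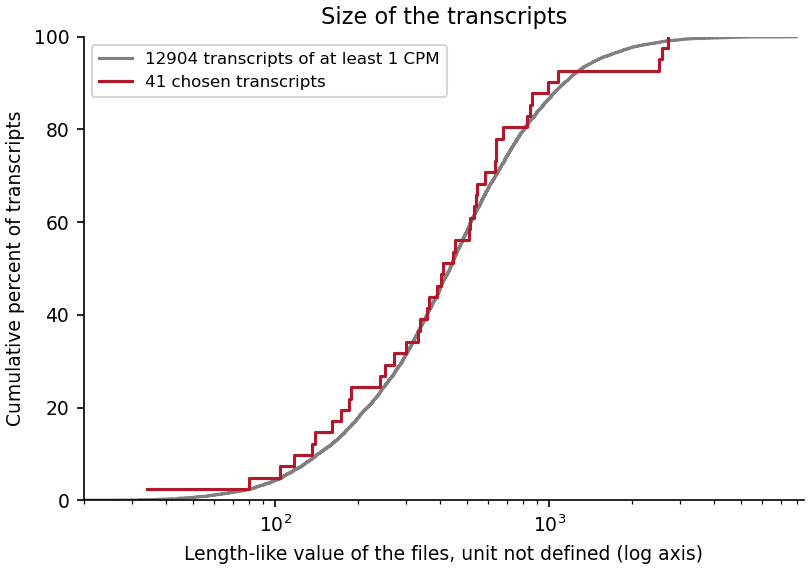
Cumulative percent of transcripts (vertical axis) by the length-like value of the tables (horizontal axis, log scale) for the 41 transcripts (red) and the 12904 of at least 1 CPM in young brain (grey). The curves lie close together, with medians of 409 and 435.

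Most of the 41 were scarce or undetected in liver. Their median level in liver RNA-seq was 0.11 CPM in young against 0.284 CPM in old rats, and in liver ribosome profiling 0.0563 and 0.101 CPM. A mean of at least 1 CPM at either age was reached by 11 in RNA-seq (26.8%) and 9 in ribosome profiling (21.9%), against 81.2% and 79.1% of the 12904. All 6 liver libraries were at 0 counts for 10 of the 41 in RNA-seq (24.4%, against 4.25%) and for 11 in ribosome profiling (26.8%, against 6.5%). In all 12 liver libraries together, 8 of the 41 were at 0 (19.5%, against 3.73%, or 2.74% of the 8787 transcripts of at least 10 CPM in young brain in both assays). A count of 0 over the 3 libraries of a group allows up to 3 counts, which is 0.0522 CPM in young against 0.0375 CPM in old liver RNA-seq, and 0.0673 and 0.0775 CPM in ribosome profiling.

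Brain levels exceeded liver levels many times over. With transcripts at 0 in liver set to that limit, the median ratio of brain to liver CPM was 148 in young and 108 in old RNA-seq, against 2.66 and 2.82 for the 12904. In ribosome profiling it was 105 and 118, against 3.38 and 2.95. Counts above 0 but below the limit were kept, so at equal brain level 1 count gives a larger ratio than 0. The young RNA-seq median is the value of ENSRNOT00000040844, which rests on 1 count over the young liver libraries. The young ribosome profiling median is that of ENSRNOT00000057896, a lower bound at 0 counts. A ratio of at least 10 was reached by 35 of the 41 in young RNA-seq (85.4%, against 24.3%), 33 in old RNA-seq (80.5%, against 24.1%), 37 in young ribosome profiling (90.2%, against 28.6%) and 33 in old ribosome profiling (80.5%, against 25.9%). A ratio of at least 100 was reached by 23, 21, 22 and 21 of the 41 in that order, against 10.95%, 11.4%, 12.1% and 10.6% of the 12904.

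**Figure D4:**
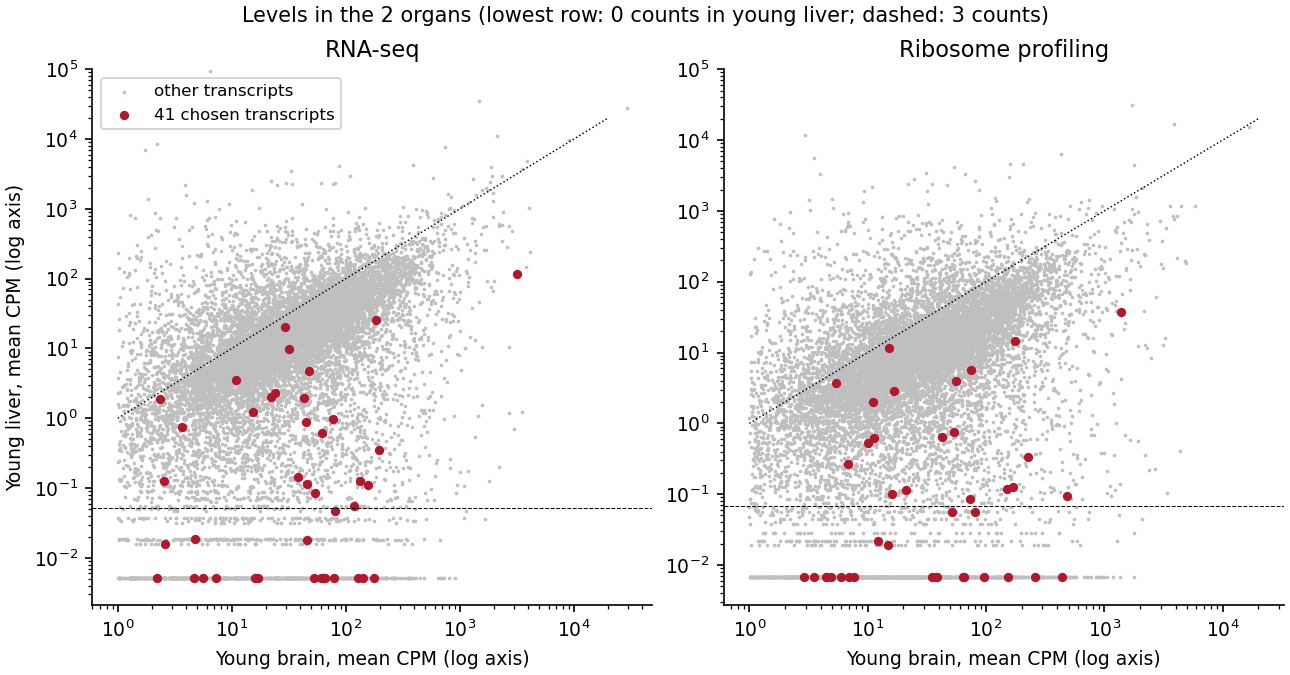
Mean CPM in young brain (horizontal axis, log scale) and in young liver (vertical axis, log scale) for the 41 transcripts (red) and other transcripts of at least 1 CPM (grey), in RNA-seq (left) and ribosome profiling (right). The dotted line marks equal levels, the dashed line the limit of 3 counts, and the lowest row holds transcripts at 0 counts. Red points lie below the dotted line, 14 of them at 0 in young liver RNA-seq and 17 in ribosome profiling.

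The mean over both ages was tested between the organs with edgeR's quasi-likelihood test. All 41 passed the filter on low counts. In the liver libraries alone, 26 of the 41 did not pass it in RNA-seq and 32 in ribosome profiling. These entered through brain, where they are high, so their direction was all but fixed beforehand. The counts below include them, and those that pass in liver were not counted apart. At an adjusted p under 0.05 in RNA-seq, 39 of the 41 were higher in brain and 2 higher in liver. Of the 14762 transcripts tested, 46.8% and 39.8% were. In ribosome profiling the counts were also 39 and 2, against 45.9% and 35.7% of 14440. Since the 41 had to reach 1 CPM in young brain, the nearer background is the tested transcripts that did so, of which 49.4% and 48.8% were higher in brain, or 52.5% and 53.1% among those of at least 10 CPM. Without old animal 2 the counts were 38 and 2 in RNA-seq and 39 and 2 in ribosome profiling. Those fits kept the 41 as chosen with old animal 2 included. The choice asked for low values in old brain, where liver-enriched transcripts took a larger share than in young brain. Whether it favoured transcripts scarce in liver was not tested. In old animals alone, 37 and 34 were higher in brain.

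The scaling between organs matters for the low end of these differences. The scaling factors of edgeR (TMM) put the median log2 difference of all tested transcripts at 0.125 in RNA-seq and 0.227 in ribosome profiling. With the 10 most abundant transcripts left out of the library sizes these medians were 0.94 and 1.08, and the share of calls that were higher in brain was 75.3% in place of 54.01% in RNA-seq and 76.5% in place of 56.2% in ribosome profiling. The 41 then gave 39 higher in brain and 1 higher in liver in RNA-seq, and 39 and 0 in ribosome profiling.

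The most brain-high, by the smaller of the fitted differences of both assays, was ENSRNOT00000010845. It was at 192.3, 169.5 and 172.3 CPM in young against 145.5, 129.5 and 154.6 CPM in old brain RNA-seq, and at 0 counts in all 6 liver RNA-seq libraries. It was thus at least 3411-fold higher in young and at least 3806-fold higher in old brain than in liver. In ribosome profiling it was at 461.8, 434.2 and 429.2 CPM in young against 328.6, 351.4 and 373.7 CPM in old brain, and 1 count was found over the 6 liver libraries, in old animal 3. Young brain footprints were at least 6618-fold above liver. By that measure ENSRNOT00000008304 followed, at 127.1 ± 6.36 CPM in young against 102.9 ± 8.65 CPM in old brain RNA-seq (SD, n = 3), with 1 count over the 6 liver RNA-seq libraries and 0 in ribosome profiling. It was at least 2434-fold higher in young brain RNA-seq and at least 2329-fold higher in young brain footprints. The edgeR adjusted p was 3.15e-11 and 2.61e-12 for these transcripts in RNA-seq and 5.55e-14 and 2.23e-12 in ribosome profiling.

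ENSRNOT00000057672 and ENSRNOT00000024065, with the largest decreases in old brain by the smaller of their ratios, were not detected, or barely, in liver. A link between the size of the decrease and the liver level was not tested. ENSRNOT00000057672 was at 0 counts in all 12 liver libraries, at least 42.3-fold below young brain in RNA-seq and at least 34.3-fold below it in ribosome profiling. ENSRNOT00000024065 had 1 count over the 12 liver libraries, and its young brain levels were at least 108-fold and 72.3-fold higher. ENSRNOT00000009288 was present in both organs, at 115.9 ± 32.0 CPM in young against 82.9 ± 7.56 CPM in old liver RNA-seq (SD, n = 3; log2 difference of brain from liver 3.64, SE 0.112, edgeR adjusted p = 1.5e-11), and at 37.2 ± 5.53 and 39.0 ± 2.94 CPM in ribosome profiling.

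Only ENSRNOT00000028815 and ENSRNOT00000028302 were called higher in liver, with sizes that depend on the scaling. ENSRNOT00000028815 was at 29.1 ± 4.11 CPM in young against 23.9 ± 0.435 CPM in old brain RNA-seq and at 20.5 ± 1.41 and 17.2 ± 1.84 CPM in liver (SD, n = 3), so its CPM were higher in brain, while the TMM-scaled log2 difference of brain from liver was -0.75 (SE 0.0674, edgeR adjusted p = 4.01e-07) and 0.07 with the 10 most abundant transcripts left out (adjusted p = 0.376). For ENSRNOT00000028302 the CPM ratio of brain to liver was 1.23 in young and 0.882 in old RNA-seq, while the TMM-scaled log2 difference was -1.17 (SE 0.145, edgeR adjusted p = 8.22e-06) and -0.36 with the 10 most abundant left out (adjusted p = 0.0494). In ribosome profiling their log2 differences were -1.12 and -1.26, and neither passed the threshold with the 10 most abundant left out (edgeR adjusted p = 0.108 and 0.0903). Under each of these scalings both lay below the median of all transcripts.

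The liver was not used to choose the 41, so their change with age there was tested. Only 15 of the 41 passed the filter on low counts in liver RNA-seq and 9 in ribosome profiling. The other 26 and 32 were too low to test. None of those tested differed between the ages at an adjusted p under 0.05 with edgeR's quasi-likelihood test, in either assay. Few transcripts did at all: in old liver RNA-seq 0.0164% of the 12198 tested were higher and 0 lower, and in ribosome profiling it was 0.0176% of 11396 against 0. The smallest adjusted p among the 41 was 0.0784 in RNA-seq and 0.288 in ribosome profiling. DESeq2 called 2 of the 15 higher and 1 lower, against 3.72% and 5.16% of all tested, and in ribosome profiling 0 of the 9, against 1.18% higher and 0.755% lower of all tested. With edgeR's spread taken over all 12 RNA-seq libraries, brain included, the other 26 entered through the brain libraries alone, so their calls are not counted. Of the 15, 2 were then called higher and 2 lower in old liver, against 7.19% and 7.55% of all tested.

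Below the threshold, the direction in liver was mixed. In RNA-seq, 9 of the 15 had lower and 6 higher values in old liver, with a median log2 fold change of -0.15 against 0.01 for all tested, and a range of -1.27 to 0.94. These values cover the 15 alone: with no filter on low counts 31 entered, and their median was 0.225. An unadjusted p under 0.05 was reached by 4 (2 higher and 2 lower), against 23.1% of all tested. The ages did not overlap for 2 higher and 3 lower ones, against 7.51% and 17.9%. In ribosome profiling the median of the 9 was -0.05 against 0.01, the range -1.54 to 1.35, and 3 (1 higher and 2 lower) had an unadjusted p under 0.05, against 12.2%. There the ages did not overlap for 3 higher and 1 lower, against 13.5% and 5.53%. A p-value that misses the threshold at this depth and number of animals does not show equal levels. The p-values measure the spread between these 3 animals an age.

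**Figure D5:**
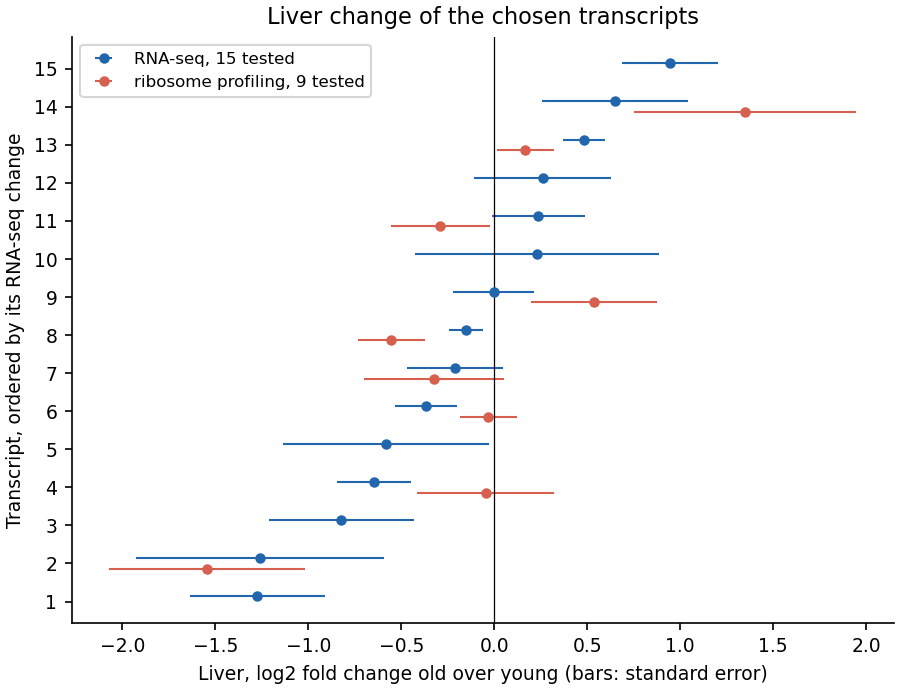
Log2 fold change of old over young liver (horizontal axis) for the 15 of the 41 transcripts tested in RNA-seq (blue) and the 9 tested in ribosome profiling (red), ordered by the RNA-seq value (vertical axis). Bars are standard errors. Points lie on both sides of 0, with ends at -1.27 and 0.94 in RNA-seq and at -1.54 and 1.35 in ribosome profiling.

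Of the values above 0, ENSRNOT00000007802 was at 25.8, 26.0 and 25.9 CPM in young against 28.9, 32.7 and 40.4 CPM in old liver RNA-seq (log2 fold change 0.48, SE 0.111, edgeR adjusted p = 0.0784). Every old animal was above every young one, old animal 3 by the most. In liver ribosome profiling it was at 14.8, 15.02 and 13.8 CPM in the young and 15.8, 18.6 and 18.1 CPM in the old (log2 fold change 0.17, SE 0.155, edgeR adjusted p = 0.696). ENSRNOT00000001759 was at 1.99, 2.39 and 1.73 CPM in young against 3.77, 2.44 and 4.96 CPM in old liver RNA-seq (log2 fold change 0.94, SE 0.258, edgeR adjusted p = 0.0989), with old animal 2 barely above the highest young animal. It was too low to test in liver ribosome profiling, at 0.625 ± 0.146 and 0.582 ± 0.342 CPM (SD, n = 3). In brain it was at 22.2 ± 2.3 CPM in young against 15.6 ± 0.701 CPM in old RNA-seq.

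Of the values below 0, ENSRNOT00000061980 was at 0.994, 2.5 and 2.4 CPM in young against 0.733, 0.707 and 0.774 CPM in old liver RNA-seq (log2 fold change -1.27, SE 0.362, edgeR adjusted p = 0.108). The old animals lay close together, and young animal 1 was near them. Without young animal 1 the log2 fold change was -1.56 (edgeR adjusted p = 0.0344). ENSRNOT00000042090 was at 10.7, 8.7 and 10.04 CPM in young against 5.23, 6.68 and 5.61 CPM in old liver RNA-seq (log2 fold change -0.65, SE 0.199, edgeR adjusted p = 0.122). Its liver footprints did not separate, at 2.89 ± 0.403 CPM in the young and 2.98 ± 1.29 CPM in the old (SD, n = 3). ENSRNOT00000009288 was lower in old liver RNA-seq on average (log2 fold change -0.37, SE 0.168, edgeR adjusted p = 0.24). Its lowest young library, at 79.1 CPM, lay within the range of the old ones. Without young animal 1 its value was -0.53 (edgeR adjusted p = 0.0393). The share of all tested transcripts called without that animal was not counted. With the trend of each library on the length-like value as an offset, ENSRNOT00000009288 was at -0.0272 (edgeR adjusted p = 0.956). In that fit ENSRNOT00000042090 was at -0.328 and ENSRNOT00000061980 at -1.07 (edgeR adjusted p = 0.546 and 0.169).

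In liver ribosome profiling, ENSRNOT00000020736 was at 0.169, 0.659 and 0.739 CPM in young against 0.748, 1.5 and 2.21 CPM in old rats (log2 fold change 1.35, SE 0.598, edgeR adjusted p = 0.409). Its lowest library held 2 counts, and the highest young and lowest old value nearly met. ENSRNOT00000054748 was at 1.77, 1.45 and 2.73 CPM in the young and 3.18, 3.24 and 2.86 CPM in the old (log2 fold change 0.54, SE 0.34, edgeR adjusted p = 0.557). In the other direction, ENSRNOT00000028815 was at 11.5, 12.3 and 11.4 CPM in the young and 9.62, 7.12 and 9.05 CPM in the old (log2 fold change -0.55, SE 0.182, edgeR adjusted p = 0.288). The value farthest from 0 belonged to ENSRNOT00000007365, singled out after its values were seen, at 2.87, 7.31 and 6.65 CPM in the young and 3.36, 2.06 and 0.846 CPM in the old, where old animal 1 lay above young animal 1 (log2 fold change -1.54, SE 0.526, edgeR adjusted p = 0.302).

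Some features of the liver libraries moved with these values. Old liver RNA-seq libraries were deeper, with a mean of 26644912 ± 1759702 counts against 19155608 ± 1729963 (SD, n = 3; two-sided exact permutation p = 0.1, the smallest that 3 against 3 can give). The 3264 brain-enriched transcripts took 0.979% of liver RNA-seq counts in old animal 3 and 0.67% to 0.759% in the other animals, and 0.886% against 0.59% to 0.682% in ribosome profiling. Of the 15 tested transcripts, 6 had their highest liver RNA-seq value in old animal 3 and 5 in young animal 2. Leaving out old animal 3 gave a log2 fold change of 0.45 for ENSRNOT00000007802 and 0.80 for ENSRNOT00000001759. The summed level of the 41 in liver was 151.5, 219.1 and 212.2 CPM in young against 150.7, 149.9 and 184.3 CPM in old RNA-seq, overlapping between the ages, and 76.4, 89.2 and 91.3 CPM and 80.1, 86.4 and 90.1 CPM in ribosome profiling. Spearman's rho of level with the length-like value averaged 0.277 in young against 0.234 in old liver RNA-seq (exact permutation p = 0.1). The part of depth and of brain-enriched transcripts in the liver values was not tested.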

How the data were processed

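The deposited files hold whole-number counts per transcript for 1 library each, not normalized, beside a length-like value of undefined unit. Tools named by the submitters' processing notes are TopHat2 2.0.10, Bowtie 1.0.0.0 and DESeq, with build rn4. For their roles, the annotation and the counting rule the entry is "not given in the sources used here", so reads shared between near-identical transcripts are uncertain. CPM are counts over the column total. Tests used the quasi-likelihood F test of edgeR 4.0.16 (R 4.3.3, robust, two-sided, TMM factors, minimum count 10 and total 15, Benjamini-Hochberg over all tested transcripts, adjusted p under 0.05), checked on simulated data. Comparisons were of ages in liver, and, averaged over ages, of organs and of the assays in brain. DESeq2 1.42.0, limma-voom (limma 3.58.1), other factors and filters, a replicate block, an offset for the length trend and left-out animals were alternatives. The ratios without old animal 2, the shares of all transcripts called at 10 CPM, in 1 age or without old animal 2, and the count of liver-tested members in the 12-library fit were added after seeing the data. The members and lists were chosen with earlier results of these data known.

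Named transcripts are those with the largest decrease in brain, the most abundant, and up to 2 per direction and comparison: past the threshold, or in liver ages, where none passed, among those with separate libraries and an average log2 CPM of at least 0. Floors of 3 counts cover counting error only, since counts are PCR reads without molecular identifiers. Animal codes in the titles pair organs and assays. Libraries of 1 animal deviated together from their age means between brain assays (correlation over 9722 transcripts 0.143 to 0.611). Between organs the correlation was 0.0202 to 0.231 in RNA-seq and -0.00997 to 0.122 in ribosome profiling. Young and old livers of the same replicate number, from different animals, gave -0.0636 to 0.245 and -0.0916 to 0.184. The organ values therefore do not show that organs of 1 animal deviate together. Replicate numbers of the ages mark different animals. No pair of replicates agreed within sampling noise.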

Additional observations from a re-analysis of the deposited data

Results flagged for a closer look

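The liver values of 4 transcripts went the opposite way from their brain values, with every old liver library above every young one and every old brain library below every young one. Separation with higher old values was found for 7.51% of all tested transcripts in liver RNA-seq and 13.5% in ribosome profiling. The brain direction was a condition of the choice of transcripts, and the difference between the organs was not tested. In liver RNA-seq these were ENSRNOT00000007802 (log2 fold change 0.48) and ENSRNOT00000001759 (0.94). In liver ribosome profiling they were ENSRNOT00000007802 (0.17), ENSRNOT00000054748 (0.54) and ENSRNOT00000020736 (1.35). In the other liver assay, ENSRNOT00000054748 (-0.00279) and ENSRNOT00000020736 (0.65) overlapped between the ages in RNA-seq, and ENSRNOT00000001759 was at 0.625 CPM in young against 0.582 CPM in old footprints. None passed the adjusted threshold in edgeR fitted on the liver libraries of the assay, and DESeq2 called the first pair in RNA-seq (adjusted p = 0.018 for ENSRNOT00000007802 and 0.0385 for ENSRNOT00000001759). Over 16 alternatives the adjusted p ran from 0.00743 to 0.299 for ENSRNOT00000007802 and from 0.0105 to 0.297 for ENSRNOT00000001759.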

How the results depend on the processing

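The rule gave 41 transcripts, 50 with TMM scaling (39 shared), 42 after removing the 10 most abundant from library sizes (38 shared), 33 with liver-enriched transcripts left out (33 shared), 33 at 5 CPM, 4 at a ratio of 1.5 and 215 without the condition on overlap. Leaving out 1 animal gave 43 to 199 (199, 68 and 43 when young animal 1, 2 or 3 was left out, and 66, 51 and 115 for old animal 1, 2 or 3; 29 of the 51 were shared), as the condition on separation is then weaker. In liver RNA-seq, DESeq2 called 3 (2 higher and 1 lower, against 3.72% and 5.16% of all tested). With the spread taken over all 12 libraries 6 were called, 4 of them among the 15 that pass the filter in liver, against 7.19% higher and 7.55% lower of all tested. The other 26 entered that fit through brain alone. Leaving out 1 animal gave 0 to 2 (2 without young animal 1), and the median log2 fold change ran from -0.18 to -0.02. The share of all tested transcripts called without young animal 1 was not counted, so those 2 calls have no background. With no filter on low counts, more transcripts entered and the median was 0.225. With the length trend as an offset 0 were called and the median was -0.0357. In liver ribosome profiling, leaving out 1 animal gave 0 calls throughout and a median of -0.247 to 0.0557. ENSRNOT00000009288 there was at 0.0885 with the 10 most abundant left out, 0.0451 without young animal 2 and 0.00219 without young animal 3 (range over left-out animals -0.152 to 0.0451), and the cause was not tested.

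Between organs, leaving out 1 animal gave 38 to 39 higher in brain and 2 higher in liver in each assay. Those higher in liver were 1 in RNA-seq at a minimum count of 50, and 1 in RNA-seq and 0 in ribosome profiling with the 10 most abundant left out, where ENSRNOT00000028815 turned to 0.0698 in RNA-seq. Leaving out 1 animal gave 14 to 18 higher in ribosome profiling than in RNA-seq and 14 to 16 lower, and old animals alone gave 9 higher. With the replicate block, 0 were called in liver in both assays, 39 and 2 between organs in both, and 17 and 15 between assays, with all 41, all 41 and 32 members called alike with and without the block between organs in RNA-seq, between organs in ribosome profiling and between assays. The DESeq2 and 12-library fits were not run with the block. In liver, 26 and 32 of the 41 were too low to test, and these entered the comparison of organs through brain.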
